A study of Mus musculus with 6 samples.

Results

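The genes described here encode the protein subunits of the mitochondrial ribosome. They were taken as the protein-coding genes of the deposited count table whose symbol begins with Mrpl or Mrps followed by a digit, which gave 78 of 45777 genes. By textbook placement 51 of them belong to the large subunit and 26 to the small subunit. Mrps18a and Mrps30 count among the large subunit despite their symbols, and Mrps36 was placed in neither. The samples were 6 RNA-seq libraries of bone marrow neutrophils of C57BL/6 mice, all wild type, isolated on a Percoll gradient. Cells of 3 libraries were kept for 24 h with PGE2 (prostaglandin E2, a lipid signal whose receptors include ones that raise cAMP) at 10 µM, and those of the other 3 with the DMSO vehicle. The design text calls them biological replicates, but the labels do not say whether each came from its own animal.

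Mitochondria carry their own ribosome. Its RNA comes from the mitochondrial genome, while its proteins are made from nuclear genes in the cytosol and imported. It translates the few membrane subunits of the respiratory chain that the mitochondrial genome encodes. Some of its proteins have a counterpart in bacterial ribosomes and others were added in mitochondria. Mature neutrophils rely mainly on glycolysis and hold few mitochondria.

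Promoters of 69 of the 78 genes were found in the RefSeq table (GRCm38.p6), and the 250 bases before the start given there were searched on both strands. For some genes, Mrpl45 and Mrpl23 among them, that start lies inside the gene's span in the deposited files. The ETS factor core CCGGAAG occurred in 16 of them (23.2%), against 9.15% of 17519 protein-coding genes. The NRF1 pattern, GCGCA and GCGC with 1 base of any kind between them, bound by a factor known for driving nuclear genes of mitochondrial proteins, occurred in 10 (14.5%), against 5.32%. The YY1 motif AAGATGGC was found in 5.80% against 1.5%. The E-box CACGTG was found in 7.25% against 6.66%, and the CCAAT box in 36.2% against 36.5%. The cAMP response element TGACGTCA, a site through which cAMP signals reach genes, occurred in 2 (2.90%, against 1.98%). These were Mrpl16 and Mrpl49, which were not among the genes called higher below. Median GC content of the windows was 58.4%, against 55.2% for all protein-coding genes. These matches describe letters and not binding. None of the 5 motifs other than CCAAT was found in 36 of the 69 promoters. The following 3 belong to genes that rose under every processing alternative tried and show a promoter with NRF1 and YY1 matches, one with an ETS match, and one with none. Each ends at the base before the gene's start in the files and is written 5′ to 3′ on the gene's strand. Capitals mark matches to the 5 motifs other than CCAAT, and CCAAT matches are not marked. They lie at chr13:14613038-14613287 (minus strand), chr14:54426659-54426908 (plus strand) and chr6:39810937-39811186 (minus strand).
Mrpl32: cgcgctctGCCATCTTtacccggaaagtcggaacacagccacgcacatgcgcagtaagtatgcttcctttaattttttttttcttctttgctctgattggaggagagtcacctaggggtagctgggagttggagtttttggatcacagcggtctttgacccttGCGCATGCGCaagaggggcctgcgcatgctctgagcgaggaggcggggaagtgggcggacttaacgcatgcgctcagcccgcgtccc
Mrpl52: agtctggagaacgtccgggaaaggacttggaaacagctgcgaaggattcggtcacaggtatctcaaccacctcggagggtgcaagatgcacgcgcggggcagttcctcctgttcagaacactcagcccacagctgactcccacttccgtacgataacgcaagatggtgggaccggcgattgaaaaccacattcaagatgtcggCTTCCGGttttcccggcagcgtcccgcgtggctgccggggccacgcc
Mrps33: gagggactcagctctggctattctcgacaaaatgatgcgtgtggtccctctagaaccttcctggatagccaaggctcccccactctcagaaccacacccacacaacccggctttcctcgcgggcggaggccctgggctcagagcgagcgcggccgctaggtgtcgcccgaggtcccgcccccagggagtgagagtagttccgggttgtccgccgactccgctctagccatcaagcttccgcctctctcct

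All 78 genes passed the filter for low values (3 or more libraries with 10 or more counts). The lowest single count was 37. Library totals ran from 42091346 to 56238941 counts. Neutrophil genes were abundant in every library: the 15 on the marker list summed to between 77087 and 93269 CPM (counts relative to the library total, scaled by edgeR's TMM factors).

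Most mitochondrial ribosomal protein genes were higher with PGE2, by a modest amount. By edgeR's quasi-likelihood test with Benjamini-Hochberg adjustment over 15947 genes, 27 of the 78 (34.6%) rose, 1 fell and 50 did not pass an adjusted p of 0.05. Over all genes tested, 10.1% rose and 14.3% fell. The median log2 fold change of the 78 genes was 0.38, with quartiles of 0.22 and 0.51, beside a median of 0.04 over all genes tested. In 72 of the 78 the log2 fold change was above 0, as it was for 53.1% of all genes. In 45 every PGE2 library lay above every vehicle library, beside 20.5% of all genes, and in 1 every PGE2 library lay below, beside 21.8%. The rises that passed ran from 0.38 to 1.07 on the log2 scale, and 1 of the 27 reached 2-fold. Among the 50 that did not pass, 45 had a log2 fold change above 0 and 18 had groups that did not overlap.

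**Figure D1:**
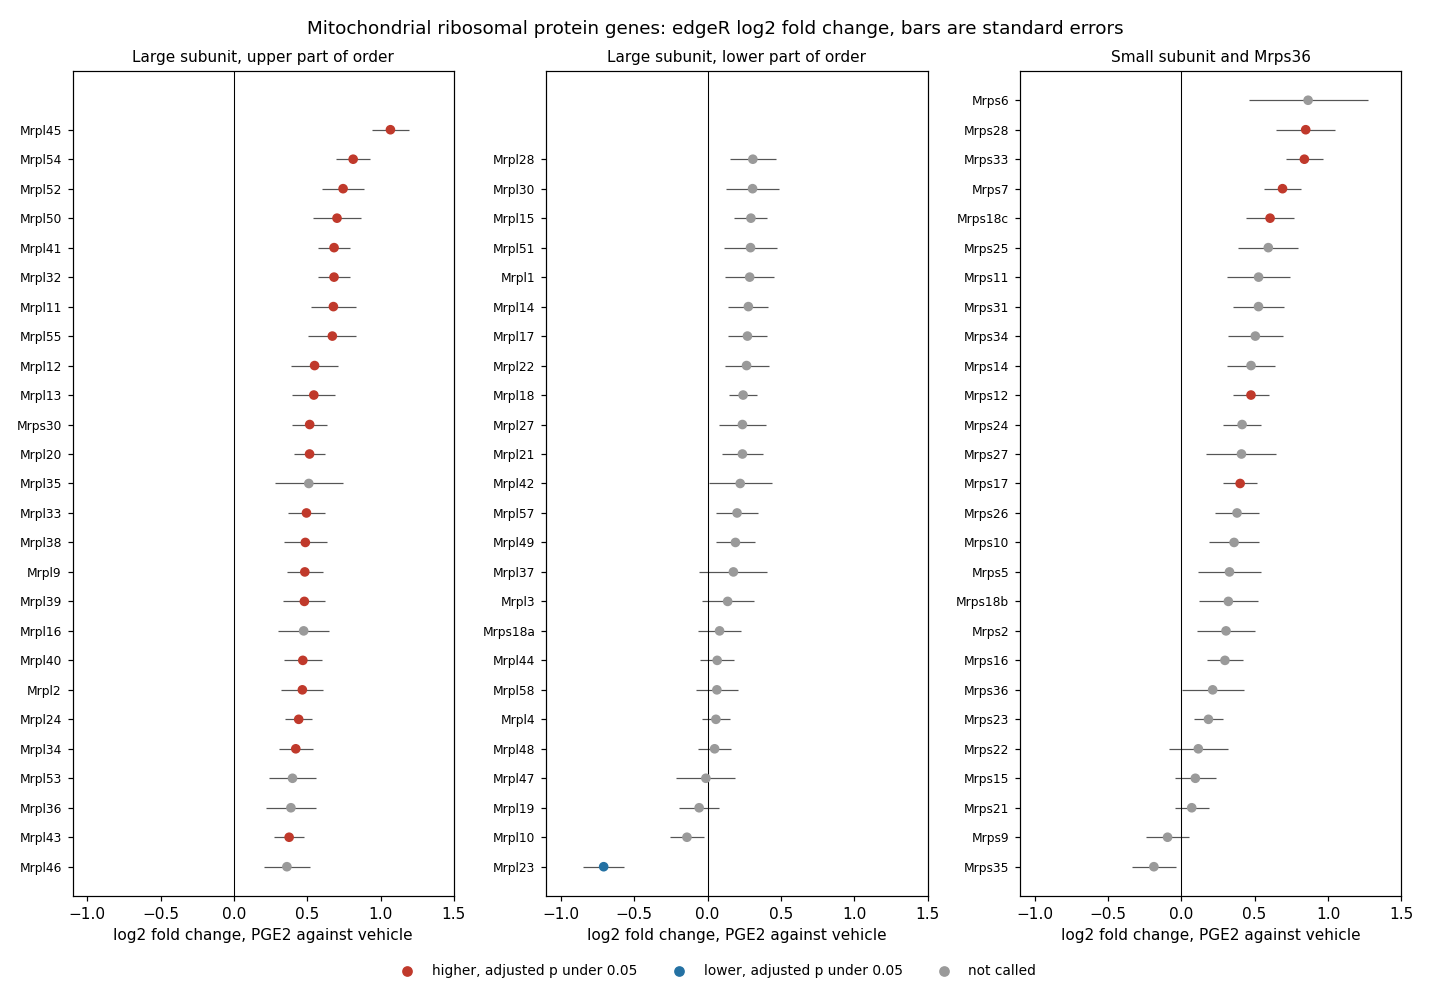
Log2 fold change of each of the 78 genes, PGE2 against vehicle, with bars of 1 standard error from the edgeR fit. The large subunit fills the left and middle panels and the small subunit with Mrps36 the right panel. Most points lie to the right of 0, and Mrpl23, at -0.71, stands apart on the left.

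The number of rises varied with the libraries and with the correction for gene length, while the direction of the median did not. Without PGE2 replicate 2, PGE2 replicate 3 or vehicle replicate 1 the count was 15 (19.2%), beside 6.8%, 7.97% and 7.52% of all genes. Without vehicle replicate 3 it was 17 (21.8%), beside 7.53%, and without vehicle replicate 2 it was 11 (14.1%), beside 6.39%. The share over all genes thus fell with 1 library fewer as well. With the replicate number as a block it was 37 higher and 1 lower, beside 16.6% and 18.9% of all genes. On log2(TPM + 1) with limma it was 12, beside 7.66% of all genes. Relative to the mean of the libraries, log2 abundance fell slightly with transcript length in every PGE2 library, with slopes from -0.03 to -0.04 per doubling of length, and rose slightly in every vehicle library, with slopes from 0.02 to 0.05. The genes described here are short, with a median transcript of 900.5 bases beside 1819.5 for protein-coding genes tested. After a trend on length and GC content was removed within each library, 23 rose, beside 9.92% of all genes, with a median log2 fold change of 0.32. That fit used each gene's protein-coding transcript of median length. When the longest transcript was used instead, an alternative chosen after the first result was seen because some shorter models are incomplete, 14 of 78 (17.9%) rose, beside 9.54% of all genes, and the median was 0.26. Slopes on the longest transcript were steeper, from -0.05 to -0.06 in the PGE2 libraries and from 0.03 to 0.08 in the vehicle libraries.

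**Figure D2:**
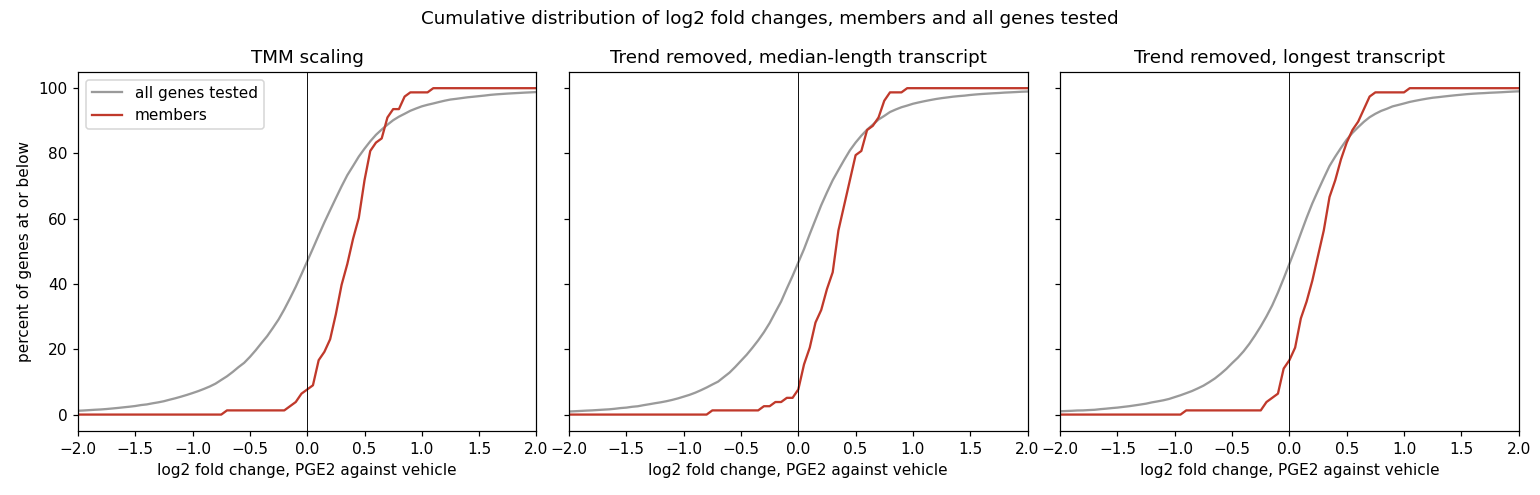
Cumulative percent of genes at or below each log2 fold change, PGE2 against vehicle, for the 78 genes (red) and all genes tested (grey), with TMM scaling alone and after removal of the length and GC trend by either transcript choice. The red curve lies to the right of the grey one around 0 in all 3 panels, with medians of 0.38, 0.32 and 0.26.

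The summed level of the 78 genes was higher with PGE2. It came to 1262, 1310 and 1307 CPM in the PGE2 libraries, against 990, 1003 and 1036 CPM in the vehicle libraries. The groups did not overlap, and the ratio of means was 1.28. In the deposited TPM (a unit that accounts for transcript length) the sums were 2271, 2069 and 2357 against 1900, 1745 and 1872. These did not overlap either, with a ratio of 1.21. Within pairs of libraries that share a replicate number, 71, 67 and 71 of the 78 genes were higher with PGE2. The matching share over all genes was not computed, and the labels do not state that these libraries are paired. In bulk RNA, fewer cells of a type and less RNA per cell cannot be told apart.

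In the large subunit 21 of 51 genes rose (41.2%, beside 10.1% of all genes) and 1 fell (1.96%, beside 14.3%), with a median log2 fold change of 0.36. In the small subunit 6 of 26 rose by edgeR (23.1%), and 11 with the replicate block, which called 16.6% of all genes higher. In this subunit 0 fell (0 also at an unadjusted p of 0.05 and by DESeq2), and the median was 0.41. Whether the subunits differ was not tested. The large subunit's summed TPM was 1687, 1604 and 1782 with PGE2 and 1384, 1299 and 1414 with vehicle, with no overlap. The small subunit's was 566, 454 and 559 against 499, 432 and 448, and there PGE2 replicate 2 lay below vehicle replicate 1. Proteins with a bacterial counterpart and mitochondrial additions were both represented. In the large subunit 11 of 30 (36.7%) and 10 of 21 (47.6%) rose. In the small subunit 5 of 16 (31.2%) and 1 of 10 rose (4 of 10 for the last with the block). Without the block that last share, 10%, is near the 10.1% of all genes.

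**Figure D3:**
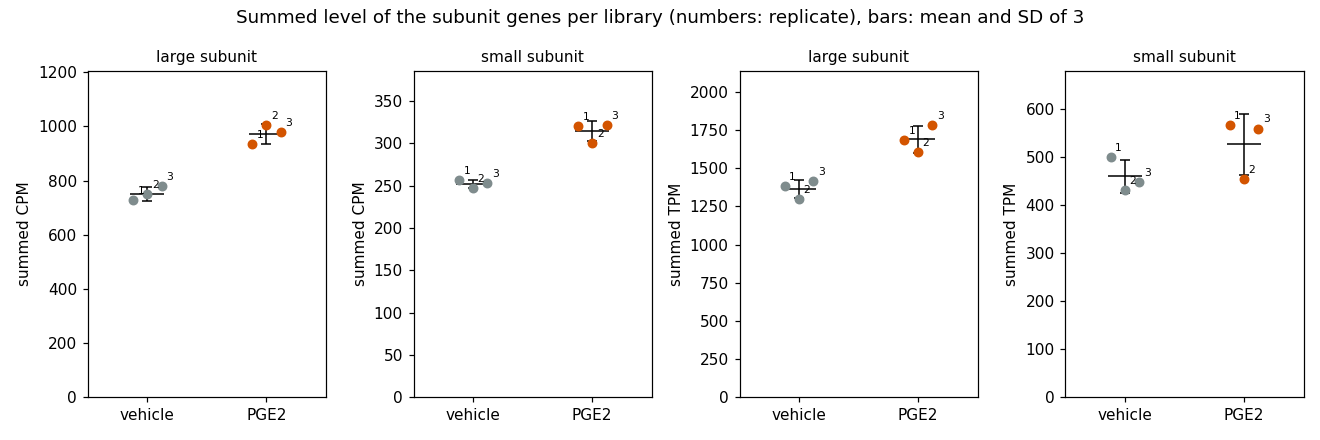
Summed CPM (left pair) and summed deposited TPM (right pair) of the large and small subunit genes in each library, with bars for the mean and SD of 3 libraries. PGE2 libraries lie above vehicle libraries in every panel except the small subunit's TPM, where PGE2 replicate 2 lies among them.

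Mrpl45, whose protein sits at the exit of the peptide tunnel and holds the ribosome to the inner membrane, had the largest rise. It is on chromosome 11 (97314923 to 97329920, plus strand, mm10). Its level was 32.4, 39.7 and 30.02 CPM with PGE2 and 17.4, 16.2 and 15.1 CPM with vehicle. The lowest PGE2 library was well above the highest vehicle library, and the log2 fold change was 1.07 ± 0.13 (SE; edgeR adjusted p = 0.00104). On the length-scaled deposited TPM it was 22.01, 22.9 and 21.1 against 13.4, 10.9 and 10.6, again without overlap.

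In the large subunit Mrpl54, Mrpl52, Mrpl50 and Mrpl41, all mitochondrial additions, followed. Mrpl54 measured 13.8, 14.4 and 13.9 CPM with PGE2 and 8.01, 8.47 and 7.50 with vehicle, a log2 fold change of 0.81 ± 0.11 (edgeR adjusted p = 0.00186). Mrpl52 measured 12.1, 15.1 and 11.9 CPM against 8.32, 7.73 and 7.27, a log2 fold change of 0.74 ± 0.14 (edgeR adjusted p = 0.00682). In both genes the PGE2 libraries lay together above the vehicle libraries, with PGE2 replicate 2 the highest. Mrpl50 measured 13.4, 14.2 and 13.5 CPM against 9.21, 6.46 and 9.53, a log2 fold change of 0.70 ± 0.16 (edgeR adjusted p = 0.0163). Its vehicle replicate 2 was low, and on log2(TPM + 1) it missed the threshold (limma adjusted p = 0.0586). Mrpl41 measured 17.7, 19.8 and 20.2 CPM against 12.5, 11.9 and 11.5, a log2 fold change of 0.68 ± 0.11 (edgeR adjusted p = 0.00325). Its groups were tight and far apart relative to their spread.

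In the small subunit the largest rises that passed were those of Mrps28, Mrps33 and Mrps7. Mrps28 measured 4.59, 6.24 and 4.92 CPM with PGE2 and 2.95, 3.31 and 2.49 with vehicle, a log2 fold change of 0.85 ± 0.20 (edgeR adjusted p = 0.0175). The groups did not overlap, but the call was lost without PGE2 replicate 2 (edgeR adjusted p = 0.0607), without vehicle replicate 3 (0.0646) and with the trend of the longest transcript removed (0.0579). The Mrps28 locus overlaps a less abundant pseudogene, LOC115489676, on the same strand by 2805 bases. That pseudogene had a log2 fold change of 1.84 and did not pass. Mrps33, a mitochondrial addition, measured 16.6, 19.5 and 19.0 CPM against 11.1, 9.10 and 10.6, a log2 fold change of 0.84 ± 0.13 (edgeR adjusted p = 0.0026). Mrps7, whose bacterial counterpart organises the head of the small subunit, measured 14.6, 16.6 and 18.1 CPM against 10.7, 9.65 and 10.2, a log2 fold change of 0.69 ± 0.12 (edgeR adjusted p = 0.00522). Neither gene's groups overlapped. The Mrps7 locus overlaps Mif4gd on the other strand, by 119 bases, which also rose (log2 fold change 0.73), and Gga3 on the other strand by 378 bases, which did not pass (-0.16). No source used here says whether counts were strand-specific, so reads of the pair may not be separable.

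**Figure D4:**
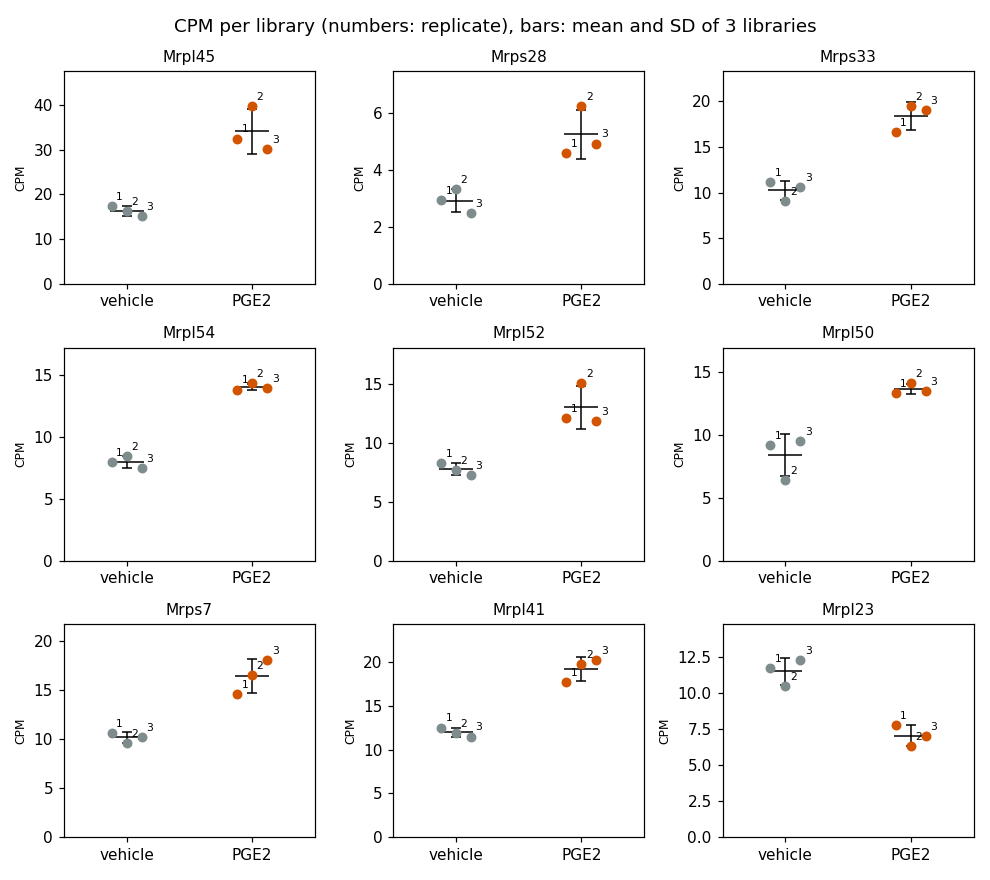
CPM per library of the 8 genes with the largest rises that passed the test and of Mrpl23, with bars for the mean and SD of 3 libraries and replicate numbers beside the points. In the first 8 panels every PGE2 library lies above every vehicle library, and in the Mrpl23 panel every one lies below.

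Mrpl45, Mrpl54, Mrpl52, Mrpl41, Mrpl32, Mrps33 and Mrps7 passed as higher in the analysis as reported and in all 17 alternatives, including both length corrections and each left-out library. Mrpl32 (log2 fold change 0.68 ± 0.11, edgeR adjusted p = 0.00327) encodes a subunit whose maturation by a mitochondrial protease is needed for ribosome assembly.

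Mrpl23 was the 1 gene of the 78 that passed as lower. The 5 others with a log2 fold change below 0, Mrps35, Mrpl10, Mrps9, Mrpl19 and Mrpl47, ran from -0.19 to -0.01 and did not pass, and Mrps35 passed as lower with the median-length trend removed and the replicate block (edgeR adjusted p = 0.0373). The protein of Mrpl23 lies at the tunnel exit, next to that of Mrpl45. Its gene, on chromosome 7 (142532467 to 142540747, plus strand, mm10), measured 7.75, 6.31 and 7.02 CPM with PGE2 and 11.7, 10.4 and 12.3 with vehicle. Every PGE2 library lay below every vehicle library, and the log2 fold change was -0.71 ± 0.14 (edgeR adjusted p = 0.00753). It was lower in all the alternatives, from -0.61 to -0.92. A pseudogene, Mrpl23-ps1, fell as well, with counts of 52, 44 and 65 against 137, 123 and 226 (log2 fold change -1.82 ± 0.26, edgeR adjusted p = 0.00191). How alike the sequences of the gene and the pseudogene are was not tested. Where copies are alike, the counting may split reads between them, so the value of Mrpl23 is uncertain to that extent.

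Per length, levels differed widely among the genes, from a mean TPM of 2.46 to 507. Mrpl33, a small bacterial-type protein of the large subunit, was the highest. Its TPM was 550, 589 and 582 with PGE2 and 402, 433 and 485 with vehicle, without overlap. Its log2 fold change on counts was 0.49 ± 0.13 (edgeR adjusted p = 0.0256), but it did not pass with the length trend removed by either transcript choice (edgeR adjusted p = 0.0809 and 0.263), nor without PGE2 replicate 2 (0.0782), vehicle replicate 1 (0.052) or vehicle replicate 2 (0.0667). Mrps21 came next, at 117, 84.6 and 95.2 TPM against 110, 103 and 90.9, with overlapping groups and a log2 fold change of 0.07 ± 0.12 (edgeR adjusted p = 0.71). Mrpl24, the third, rose with a log2 fold change of 0.44 ± 0.09 (edgeR adjusted p = 0.00931), a call lost on log2(TPM + 1) (limma adjusted p = 0.061). Mrpl33 overlaps the less abundant noncoding gene Gm38424 on the same strand, which did not pass (log2 fold change -0.16). Mrpl24 overlaps Rrnad1 on the other strand by 850 bases. Rrnad1 had a log2 fold change of 0.28 ± 0.10 with groups apart and did not pass (edgeR adjusted p = 0.0746). With the replicate block it passed (edgeR adjusted p = 0.0308). Whether its reads enter the Mrpl24 counts was not tested.

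The 3 lowest by TPM were Mrps25, Mrpl35 and Mrpl17, and none of them passed in the analysis as reported. Mrps25 measured 12.8, 7.48 and 11.6 CPM with PGE2 and 7.55, 6.70 and 6.88 with vehicle, where PGE2 replicate 2 fell within the vehicle range (log2 fold change 0.59 ± 0.20, edgeR adjusted p = 0.07). Without that library its edgeR adjusted p was 0.012, and with the replicate block it was 0.0216. Mrps25 passed as higher in 7 of 18 settings, which include DESeq2 and both length corrections. The far more abundant Nr2c2, on the other strand, overlaps the Mrps25 locus by 3547 bases and did not pass (log2 fold change -0.13). Whether its reads enter the Mrps25 counts was not tested. Mrpl35 and Mrpl17 had log2 fold changes of 0.51 ± 0.23 and 0.27 ± 0.13, and Mrpl35 passed with the block (edgeR adjusted p = 0.0328). Mrpl17 passed in 1 setting, with the longest transcript's trend removed and the block (edgeR adjusted p = 0.0136).

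The spread among vehicle libraries was largest for Mrps6, Mrpl35 and Mrpl51. Mrps6 measured 3.01, 2.01 and 3.29 CPM with PGE2 and 0.807, 1.32 and 2.42 with vehicle, and vehicle replicate 3 overlapped the PGE2 range. Its log2 fold change of 0.86 ± 0.41 was as large as that of Mrps28 but did not pass (edgeR adjusted p = 0.165), and without vehicle replicate 3 it did (0.0425). The span of Mrps6 overlaps that of Slc5a3 on the same strand by 29138 bases, with mean counts of 112 and 143. Slc5a3 did not pass (log2 fold change 0.40), and reads of the pair may not be separable. Mrpl51 had a log2 fold change of 0.29 ± 0.18.

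Mrpl48 differed between the units. On counts its log2 fold change was 0.05 (edgeR adjusted p = 0.80), and on log2(TPM + 1) it was 0.48 (limma adjusted p = 0.021). The gene overlaps the far more abundant Rab6a on the other strand, which fell (log2 fold change -0.48). Mrpl48 was singled out after its values were seen. Of the 53 genes with no overlapping neighbour 21 rose (39.6%), with a median of 0.41. Of the 25 with one 6 rose (24%), with a median of 0.28. These 25 include Mrps2, Mrps27 and Mrps9, whose neighbours had a mean count of 0, and Mrpl53, with an overlap of 14 bases. Whether the shares with and without a neighbour differ was not tested. Over all genes tested 10.1% rose.

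Of 99 genes tested on 7 lists around the mitochondrial ribosome, 15 rose (15.2%) and 2 fell, with a median log2 fold change of 0.19, beside 10.1% and 14.3% of all genes. With the median-length trend removed 9 rose, beside 9.92% of all genes, and on log2(TPM + 1) with limma 7 rose, beside 7.66%, both shares near the background. Among 5 further ribosome subunits with other symbols, Chchd1 (0.84 ± 0.12) and Gadd45gip1 (0.73 ± 0.20) rose, while Aurkaip1 was at 0.03 ± 0.09. Of 25 assembly factors 4 rose (16%) and 1 fell (4%), with a median log2 fold change of 0.26. Their summed level was lower with PGE2, at 314, 321 and 322 CPM against 363, 360 and 340, without overlap. Summed TPM did not overlap either, with a ratio of 0.80, but as a percent of counts the groups overlapped. Ddx28, a helicase needed for large subunit assembly, measured 8.46, 12.4 and 14.2 CPM with PGE2 and 3.56, 4.34 and 4.49 with vehicle, a log2 fold change of 1.5 ± 0.21 (edgeR adjusted p = 0.002). Its groups did not overlap. Malsu1, a large subunit assembly factor, also rose (0.74 ± 0.20), and Rbfa, which acts in small subunit maturation, fell by 0.65 ± 0.10 on the log2 scale.

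Of 16 translation factors 2 rose (12.5%, near the 10.1% of all genes). They were Slirp (1.01 ± 0.18), which stabilises mitochondrial mRNAs, and the elongation factor gene Tsfm (0.91 ± 0.26). Its partner Tufm was at 0.32 ± 0.11 and did not pass. The 20 mitochondrial tRNA synthetase genes had a median log2 fold change of 0.10, and Mars2 and Cars2, at -0.68 ± 0.25 and -0.31 ± 0.13, did not pass. Of 11 genes for mitochondrial transcription and genome upkeep 1 rose (9.09%, also near the share over all genes), the single-strand binding protein gene Ssbp1 (0.45 ± 0.10). Mterf1a and Polrmt, at 0.37 ± 0.12 and 0.43 ± 0.15, did not pass, but did with the replicate block (edgeR adjusted p = 0.0335 and 0.0454). The block called 4 of the 11 higher, beside 16.6% of all genes. The calls of Gadd45gip1, Malsu1, Tsfm and Ssbp1 were each lost when at least 1 single library was left out.

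Of 10 regulators of nuclear mitochondrial genes 0 passed by edgeR, with 1 at an unadjusted p under 0.05 and 1 by DESeq2. Tfam, the mitochondrial genome's packaging and transcription factor, was at 0.55 ± 0.20 (edgeR adjusted p = 0.0817), and with the replicate block it passed (0.00315). Nrf1 and Yy1 were at -0.20 ± 0.09 and -0.13 ± 0.07. Of the 13 mRNAs of the mitochondrial genome, which the mitochondrial ribosome translates, 5 rose (38.5%, beside 10.1% of all genes) and 1 fell (7.69%, beside 14.3%). With the replicate block 2 fell. COX3 measured 1129, 1023 and 1060 CPM with PGE2 and 602, 602 and 644 with vehicle, a log2 fold change of 0.80 ± 0.08 (edgeR adjusted p = 0.000596) with no overlap. ATP6 and ND3 rose by 0.51 ± 0.08 and 0.81 ± 0.14, and ND5 fell by 0.44 ± 0.10, a call lost without PGE2 replicate 2 (edgeR adjusted p = 0.0508) or vehicle replicate 2 (0.0506).

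**Figure D5:**
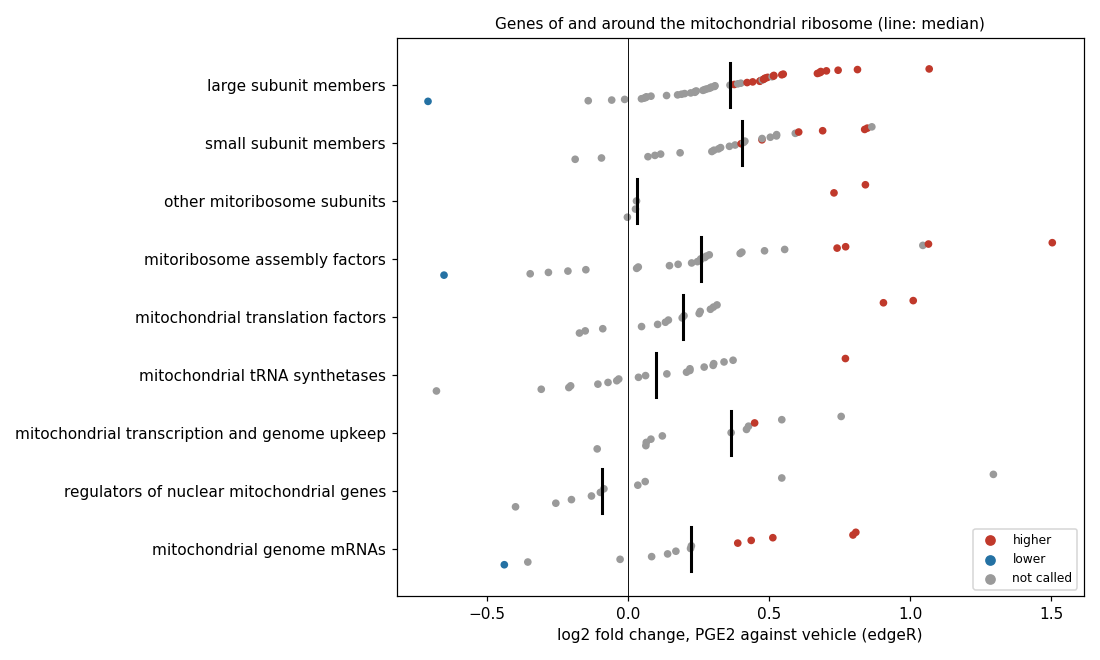
Log2 fold change (PGE2 against vehicle, edgeR) of the genes of both subunits and of the 7 lists around the mitochondrial ribosome, 1 point a gene, with a black line at the median of each list. The subunit genes cluster to the right of 0, with medians of 0.36 and 0.41, and the regulators have a median of -0.09.

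Markers of other cells moved alongside these changes. The 11 red cell precursor genes tested had a median log2 fold change of 1.34, with 2 called higher by edgeR and 11 with the replicate block. They made up 1.66, 5.05 and 2.57% of counts with PGE2 and 0.451, 1.93 and 1.15% with vehicle, with overlapping groups. The 8 B cell genes summed to 696, 580 and 842 CPM against 464, 393 and 524, and 3 of them rose (7 with the block). Of the 15 neutrophil genes 9 fell and 0 rose, although the summed level overlapped between groups. Of the immature granulocyte genes 0 of 12 rose and 3 fell, of the monocyte genes 1 of 12 rose and 2 fell, of the T and NK cell genes 0 of 8 passed (0 also at an unadjusted p under 0.05 and by DESeq2), and of the eosinophil, basophil and mast cell genes 0 of 8 rose and 3 fell. With the block 3 of the 12 immature granulocyte genes and 2 of the 8 T and NK cell genes were called higher. Over all genes tested 10.1% rose and 14.3% fell, and with the block 16.6% rose and 18.9% fell. The part of these cells in the rise of the mitochondrial ribosomal protein genes was not tested.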

How the data were processed

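RNA-seq was measured in 6 libraries. The labels name the TruSeq mRNA kit both as standard and as stranded. The build was mm10 and the tools were STAR, Bowtie2, RSEM, DESeq2 and StringTie 2.1.3b, per the submitters' processing notes. The sources used here do not tie a tool to a value. The authors deposited estimated counts per gene, whole numbers whose totals differ between libraries, and TPM per gene, per the file headers. Columns of 6 other libraries, 18 in number, were not used.

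Counts were tested with edgeR 4.0.16 (R 4.3.3; quasi-likelihood, TMM, two-sided, adjusted p under 0.05) on genes that reached 10 counts in 3 or more libraries. Log2 fold changes are given with the standard error. The biological coefficient of variation was 22.4%. The fit was also tested on simulated data. TPM was tested as log2(TPM + 1) with limma 3.58.1, on genes of at least 1 TPM in 3 libraries. On that scale changes of low genes are understated. DESeq2 1.42.0 was an alternative. Length and GC content came from GENCODE vM21. The first length correction used the protein-coding transcript of median length. The longest transcript was added after that result was seen. Same-numbered libraries deviated together (r of 0.258, 0.174 and 0.187 over genes, against 0.0019 at most between other numbers), a hint of pairing from the data and not from the labels. The test as reported has no replicate term, and the replicate block was an alternative. P-values measure the spread between these libraries.

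Named genes were the 8 largest rises and falls among genes that passed and whose groups were apart, the 3 highest and 3 lowest by mean TPM, the 3 with the largest vehicle spread, and, in each other list, the 3 with the smallest adjusted p with 1 in the other direction if it passed. The genes described and the lists were chosen with earlier results of these data known. A result for 1 gene that this rule names is not reported here.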

Additional observations from a re-analysis of the deposited data

How the results depend on the processing

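The main analysis gave 27 genes higher and 1 lower, beside 10.1% and 14.3% of all genes, and a median log2 fold change of 0.38. The median moved to 0.47 with library totals alone, 0.26 with log2(TPM + 1), 0.32 with the length and GC trend removed with or without the replicate block, 0.26 with the longest transcript's trend removed and 0.27 with its trend removed and the replicate block. The count higher was 12 with log2(TPM + 1), beside 7.66% of all genes. It was 14 with the longest transcript's trend removed, beside 9.54%. That last alternative was chosen after seeing the data. The transcript of median length gave 23 in its place, beside 9.92%, so the size of the length correction depends on the transcript model. The replicate block raised the count higher to 37, beside 16.6% of all genes. It was 23 and 35 with the longest and median-length trends removed as well, beside 16.2% and 16.6%. The median-length trend with the block gave 2 lower, Mrpl23 and Mrps35, beside 2758 of 14542 genes. Leaving out 1 library gave 11 to 24 higher, beside 6.39% to 9.86% of all genes, and a median of 0.34 to 0.43. DESeq2 gave 29 higher, beside 12.4% of all genes, and DESeq2 size factors 27, beside 9.85%. No filter gave 21, beside 6.18%, and a minimum of 50 counts 28, beside 14.5%. Over all genes, library totals alone moved the median to 0.13 and the share of higher among all calls from 41.5% to 55.5%, and log2(TPM + 1) moved that share to 30%. The median of the 78 genes stayed above that of all genes by 0.22 to 0.39 in every alternative run.

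Of the 99 genes around the ribosome 15 were higher and 2 lower, beside 10.1% and 14.3% of all genes, with a median of 0.19. Library totals alone gave 1 lower, beside 1751 of 15947 genes, and a median of 0.29. With log2(TPM + 1) 7 were higher, beside 7.66% of all genes, and the median was 0.0503. With the trend removed 9 were higher, beside 9.92% of all genes, and the median was 0.14. With the block as well 4 were lower, beside 2758 of 14542 genes, and the median was 0.14. With the longest transcript's trend removed 8 were higher, beside 9.54% of all genes, and 1 lower, beside 13%. The median there was 0.14, and 0.13 with the block. Leaving out 1 library gave 8 to 14 higher, beside 6.39% to 9.86% of all genes. It gave 1 to 2 lower and a median of 0.14 to 0.20.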
